A study of Drosophila melanogaster with 6 samples.

Results

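The cuticle protein gene families of Drosophila melanogaster were followed in whole adult flies. The members were the genes whose platform symbol starts with Cpr and a digit, Ccp84, Lcp and a digit, Pcp, Edg or Twdl, each read from a probe set that the platform assigns to that gene alone. The array held 104 such genes among 11982 genes in all. They comprised 66 Cpr, 24 Twdl, 7 Lcp, 3 Ccp84 and 3 Edg genes, and Pcp. A RefSeq gene table held 124 genes with such symbols, and the others were not read as single genes here. A gene with several probe sets was read from the one with the highest mean signal.

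The insect cuticle is built from chitin fibres and structural proteins that the epidermis secretes. Cpr genes encode proteins with the Rebers and Riddiford consensus, a chitin-binding region, and Twdl genes encode the Tweedle family, in which dominant TwdlD mutations give short, stout larvae and pupae. Lcp genes were named for larval cuticle, Pcp for pupal cuticle, Edg genes for their dependence on ecdysone, and Ccp84 genes for a cuticle gene cluster. Many of these genes are known to be transcribed in bursts around moults, including the burst in the pupa that lays down adult cuticle.

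Flies of 3 genotypes received an injection of either the Gram-positive bacterium Staphylococcus saprophyticus or buffered saline (PBS) and were homogenised whole 12 hours later. The genotypes were gyc76c[revert], labelled as the control, gyc76c[KG03723], mutant for a receptor guanylate cyclase, and spz[rm7], mutant for Spätzle, which activates the receptor Toll. Their short names below are revert, KG03723 and rm7. Each of the 6 combinations was measured on 1 array, so a ratio of 2 arrays carries no error and no p-value. The labels give adult as the only age and state neither the sex nor the number of flies on an array, nor how the alleles share their genetic background.

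Signals are MAS5 intensities on a linear scale, scaled to 1 trimmed mean on every array. A signal above 43 was taken as measured, and lower signals were set to 43 before a fold or a log2 difference was taken. The share of probe sets above 43 lay between 58.8% and 60.9% on the 6 arrays. The 3'/5' ratio of the eIF-4A control, a sign of RNA integrity, ran from 5.66 on the revert bacteria array to 6.61 on the rm7 bacteria array, and those of actin (2.29 to 2.81) and GAPDH (1.99 to 2.68) had the same 2 arrays at their ends. Summed signals of marker lists also moved. The 21 listed testis genes, 18 of them measured, summed to 11359 on the revert bacteria array and to between 13309 and 20678 on the others. The 17 measured accessory gland genes of 19 summed to 49683 to 92374, and the 14 eggshell genes of 18 to 95119 to 146009. The 17 flight muscle genes of 21 summed to 43143 to 56758, and the 21 midgut genes of 25 to 146456 to 217308. The 9 photoreceptor genes of 17 summed to 11645 to 18755. The 12 fat body genes on the array of 16 listed, 10 of them measured, summed to 111823 to 156340. The testis genes aly, can and nht and the fat body genes Fbp1 and Fbp2 were above 43 on no array. The part of these differences in the results below was not tested.

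Most cuticle protein genes gave no signal above 43 in these adult flies. Of the 104 genes, 24 (23.1%) were above 43 on at least 3 arrays, against 79.5% of all genes. These 24 are called measured, and 14 of them were above 43 on all 6 arrays. A further 16 were above it on 1 or 2 arrays and 64 on none. In bulk tissue, fewer cells of a type and less RNA per cell cannot be told apart.

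The measured genes were unevenly spread over the families. The Cpr family gave 18 of its 66 members, the Twdl family 4 of 24 (TwdlH, Twdlalpha, TwdlT and TwdlY), the Edg genes 1 of 3 (Edg91) and Pcp was measured. None of the 7 larval Lcp genes and none of the 3 Ccp84 genes read singly passed. The RefSeq table held 17 Lcp and 7 Ccp84 genes, and the others were not read singly. A probe set shared by Lcp65Ag1 and Lcp65Ag2, outside the rule, read 46 on the revert PBS array and 124 on each rm7 array. Just inside the rule, the third highest signal was 43.9 for TwdlY, 44.5 for Twdlalpha and 46.2 for TwdlT, and just outside it was 42.8 for Cpr47Eb, 42.6 for Cpr76Bd and 41.2 for Cpr62Bc.

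Many of these genes lie side by side in the genome, and within such runs few were measured. Taking members with at most 1 other coding gene between them as a run, 8 runs with at least 4 members on the array held 47 members, of which 7 were measured. The other 57 members held 17 measured genes, and of the 30 members with no such neighbour 12 were measured. In the run that holds the Lcp65A and Cpr65A genes, Cpr65Au was the 1 measured gene of 9. In the long Tweedle run of chromosome arm 3R, TwdlH was the 1 measured gene of 11. The run with the Cpr47E genes had 2 of 7 (Cpr47Ee and Cpr47Ef), while the run with the Ccp84A genes had 0 of 4.

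**Figure D1:**
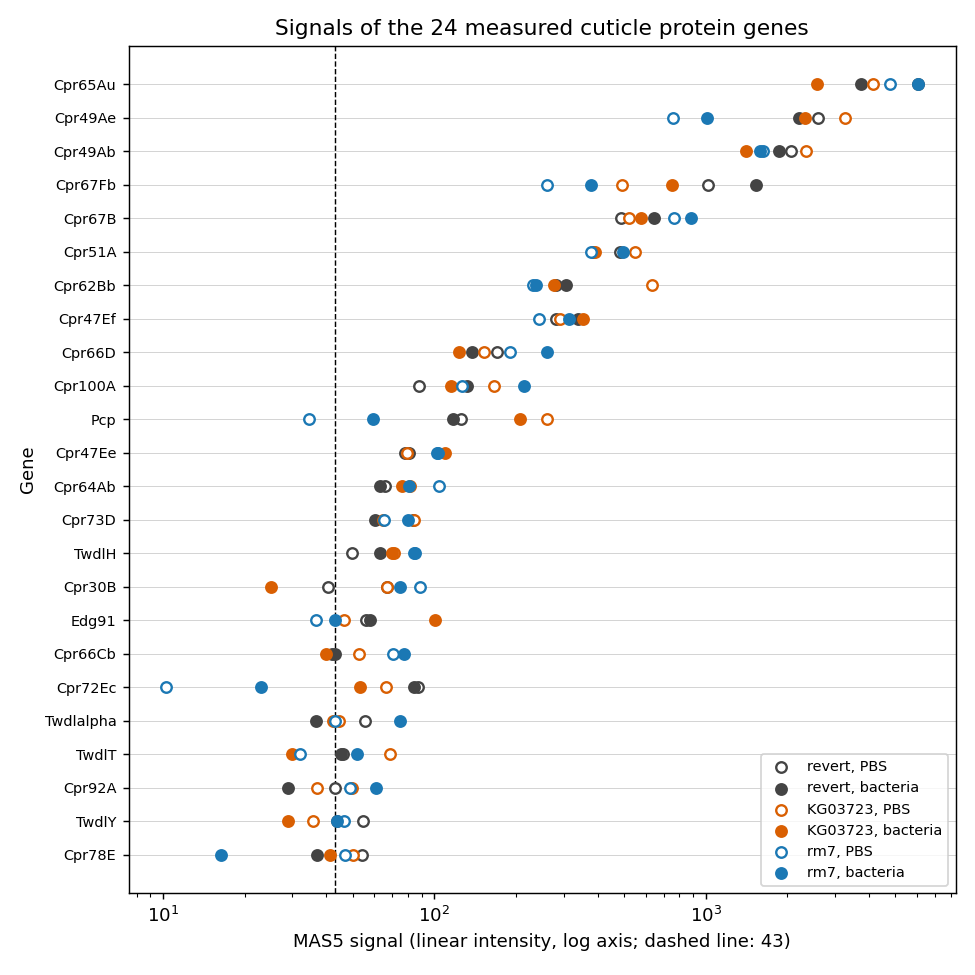
MAS5 signal (linear intensity, log axis) of the 24 measured cuticle protein genes, with 1 point per array coloured by genotype. Points are filled for bacteria and open for PBS, and the dashed line marks 43. Among the genes whose points are spread by genotype are Cpr67Fb, Cpr49Ae, Pcp and Cpr72Ec. The rm7 points of Cpr72Ec lie at 10.3 and 23, below the line.

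Cpr65Au gave 6048 and 3746 in revert after PBS and bacteria, 4142 and 2563 in KG03723, and 4761 and 6046 in rm7. Its highest array was 2.36-fold above its lowest. Revert overlapped with both mutants, while both rm7 arrays were above both KG03723 arrays. The log2 difference of rm7 from KG03723 was 0.72 ± 0.25 and did not pass with all arrays (limma adjusted p = 0.182). With 1 array left out at a time, the log2 difference ran from 0.20 to 1.24. Leaving out a revert array leaves the estimate as it is and changes its error alone, on 1 residual degree of freedom. Cpr49Ab gave 2067 and 1861 in revert, 2332 and 1407 in KG03723, and 1623 and 1579 in rm7. Its lowest array was that of KG03723 after bacteria and its highest that of KG03723 after PBS. The genes are described on their own probe sets, since signals of different probe sets do not compare levels between genes.

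Steadier signals were seen for several Cpr genes. Cpr51A gave 483 and 384 in revert, 551 and 390 in KG03723, and 378 and 497 in rm7, with no order by genotype. Cpr47Ef gave 281 and 339, 290 and 352, and 244 and 313 in the same order. Its bacteria array was the higher one in each genotype. The second probe set of Cpr47Ef stayed below 43 on every array, at 1.78 to 26.7.

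Among the dimmer of the 12 brightest genes, Cpr66D gave 170 and 137 in revert, 152 and 123 in KG03723, and 190 and 259 in rm7, so that both rm7 arrays were above the other 4. Cpr100A gave 88.1 and 132, 166 and 115, and 127 and 215, with overlapping genotypes and a 2.44-fold range. Cpr47Ee gave 77.8 and 80.8, 79.6 and 110, and 102 and 103. Its 2 rm7 signals lay between those of KG03723. The median log2 range over the 6 arrays was 0.82 for the 24 measured genes and 0.57 for all measured genes.

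Differences between genotypes were tested with an additive limma fit of genotype and injection over the 6 arrays, across the 9527 measured genes of all kinds. Its error is the departure from additivity, on 2 residual degrees of freedom, so a response to bacteria that differs between genotypes counts as error. Benjamini-Hochberg adjustment ran over all 9527 genes. Against revert, the cuticle protein genes that passed at an adjusted p of 0.05 were all lower in the mutant. Those that passed between the mutants were lower in rm7, and so higher in KG03723. Cpr67Fb was lower in rm7 than in revert, lower in KG03723 than in revert and lower in rm7 than in KG03723. Cpr49Ae was lower in rm7 than in either other genotype, and Pcp was lower in rm7 than in KG03723.

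Cpr67Fb, which encodes a Rebers and Riddiford protein, gave 1022 and 1527 in revert after PBS and bacteria, 493 and 749 in KG03723, and 260 and 377 in rm7. Every revert array was above every KG03723 array, and both of those were above both rm7 arrays. After PBS the KG03723 signal was 2.07-fold lower than that of revert and the rm7 signal 3.92-fold lower, and after bacteria these folds were 2.04 and 4.05. In the limma fit the log2 difference from revert was -1.99 ± 0.15 (SE) in rm7 (adjusted p = 0.00082) and -1.04 ± 0.15 in KG03723 (adjusted p = 0.0266). Between the mutants, rm7 was lower than KG03723 by a log2 difference of -0.95 ± 0.15 (limma adjusted p = 0.0132). The rm7 difference from revert kept an adjusted p of at most 0.0143 under all 12 alternatives tried. The KG03723 difference lost its call without the revert PBS array (limma adjusted p = 0.0513), the revert bacteria array (0.0802), the KG03723 PBS array (0.228) or the KG03723 bacteria array (0.15), with log2 differences of -1.06 to -1.02 throughout. It also missed the threshold without a variance trend (limma adjusted p = 0.0861), with each gene's probe sets averaged (0.0914) and with all genes above 43 on at least 1 array in the fit (0.0633). Cpr67Fb has 1 probe set, so the average changed other genes of the fit and not its own values. The difference between the mutants lost its call without the KG03723 PBS array (limma adjusted p = 0.1) or the KG03723 bacteria array (0.13). The neighbours of Cpr67Fb, Cpr67Fa1 and Cpr67Fa2, were dim. Cpr67Fa1 was above 43 on the rm7 bacteria array alone (69.1), and Cpr67Fa2 lay between 2.2 and 11.5.

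Cpr49Ae gave 2589 and 2201 in revert, 3257 and 2324 in KG03723, and 760 and 1007 in rm7. Both rm7 arrays were well below the other 4, and revert and KG03723 overlapped. Against revert, rm7 was 3.41-fold lower after PBS and 2.19-fold lower after bacteria. The fitted log2 difference was -1.45 ± 0.21 from revert (limma adjusted p = 0.00963) and -1.65 ± 0.21 from KG03723 (limma adjusted p = 0.00561). Both calls held without any 1 array, with log2 differences from revert of -1.83 without the rm7 bacteria array to -1.07 without the rm7 PBS array. The difference from revert missed the threshold without a variance trend (limma adjusted p = 0.0611) and with each gene's probe sets averaged (0.0725). With that average the difference from KG03723 missed it as well (0.052). Cpr49Ae too has 1 probe set, so its own values were unchanged by the average. Next to Cpr49Ae, Cpr49Af lay between 1.4 and 6.8 on all arrays. Cpr49Ag was above 43 on the 2 revert arrays, at 49.3 and 55.3, and on no other.

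Pcp gave 125 and 118 in revert, 261 and 206 in KG03723, and 34.6 and 59.6 in rm7. The 3 genotypes did not overlap, with KG03723 on top and rm7 at the bottom, where the PBS array was under 43. The log2 difference of rm7 from KG03723 was -2.20 ± 0.29 (limma adjusted p = 0.00737). The call was lost without the KG03723 PBS array (limma adjusted p = 0.0865) and without the rm7 PBS array (0.0575). Against revert the differences did not pass, at -1.26 ± 0.29 for rm7 (limma adjusted p = 0.06) and 0.93 ± 0.29 for KG03723 (0.32). The rm7 difference did pass without the revert bacteria array (limma adjusted p = 0.0301) and after quantile normalization (0.0327). After PBS alone, Pcp was at least 2.92-fold lower in rm7 than in revert and 2.08-fold higher in KG03723.

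Pcp lies within the span of Gart, a gene for purine synthesis enzymes. Gart gave 1187 and 1135 in revert, 1558 and 1094 in KG03723, and 740 and 756 in rm7. Both rm7 arrays were thus the lowest for Gart too, with a log2 difference from KG03723 of -0.80 ± 0.16 (limma adjusted p = 0.0357) and from revert of -0.63 ± 0.16 (0.0855). The part of Gart transcripts in the Pcp signal was not tested. Other measured members overlap brighter genes as well. Cpr51A overlaps CG30197 (3839 to 6246), Cpr73D overlaps Ogdh (5991 to 7057), and TwdlY and Twdlalpha overlap goe (295 to 501). Twdlalpha also overlaps CG32568 (116 to 206). The part of these transcripts in the signals of the members was not tested either.

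**Figure D2:**
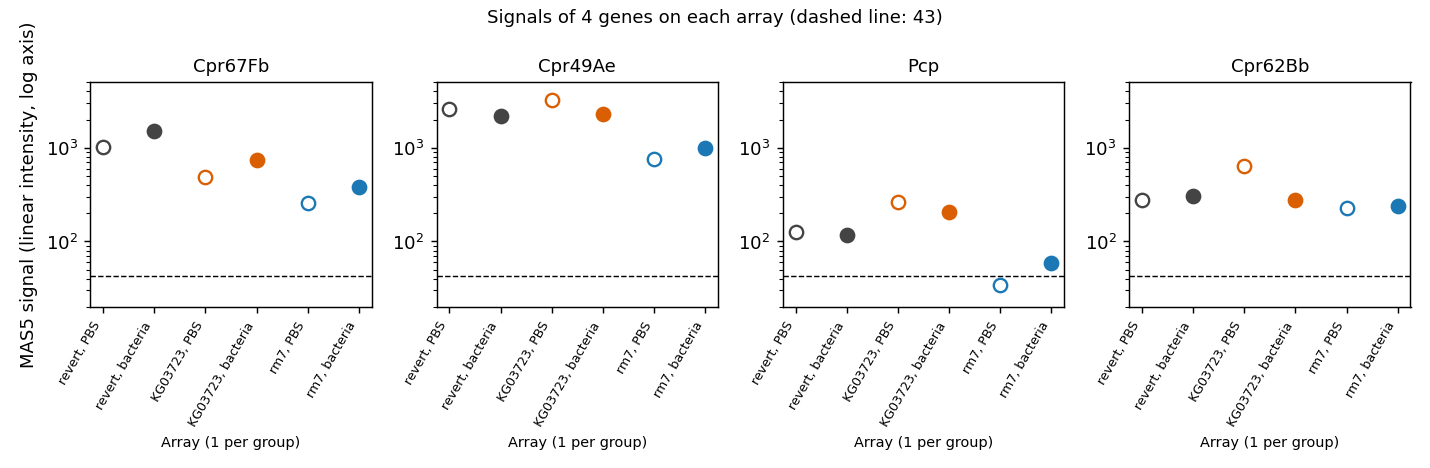
MAS5 signal (linear intensity, log axis) of Cpr67Fb, Cpr49Ae, Pcp and Cpr62Bb on each of the 6 arrays, 1 point per array; the dashed line marks 43. Cpr67Fb steps down from revert to KG03723 to rm7, whereas Cpr49Ae is low in rm7 alone and Pcp is highest in KG03723.

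The calls rest on Cpr67Fb, Cpr49Ae and Pcp, 3 of the 24 measured genes. In rm7 over revert 2 of the 24 (8.33%) passed as lower and 0 as higher, where 3.01% of all measured genes passed as lower and 2.61% as higher. In rm7 over KG03723 3 (12.5%) passed as lower and 0 as higher, where 3.44% and 2.71% of all genes did, and without the KG03723 PBS array the 3 became 1 (Cpr49Ae). In KG03723 over revert 1 (4.17%) passed as lower and 0 as higher, where 0.693% and 0.682% did. At an unadjusted limma p under 0.05, in either direction, stood 6 of the 24 in rm7 over revert (17.2% of all genes), 8 in rm7 over KG03723 (17.8% of all genes) and 2 in KG03723 over revert (8.52% of all genes). The median log2 difference of the 24 genes was 0.03 in rm7 over revert, against 0.02 for all genes, and 0.08 in KG03723 over revert, against -0.005 for all genes.

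Arrays of 1 genotype stood apart for members that passed the test and for others that did not. Both rm7 arrays were above the other 4 for 5 of the 24 genes, Cpr30B, Cpr66Cb, Cpr66D, Cpr67B and TwdlH, and 18.0% of all genes had this pattern. They were below the other 4 for 6 genes, Cpr49Ae, Cpr62Bb, Cpr67Fb, Cpr72Ec, Edg91 and Pcp, a pattern of 11.3% of all genes. Cpr67B gave 488 and 647 in revert, 520 and 575 in KG03723, and 765 and 880 in rm7, a log2 difference of 0.55 ± 0.15 from revert that did not pass (limma adjusted p = 0.115). Cpr66Cb gave 42.2 and 43.1, 53 and 39.8, and 70.6 and 77.3, a difference of 0.78 ± 0.26 that did not pass either (limma adjusted p = 0.18). Its rm7 arrays were clear of the rest, but 2 of the other 4 were under 43. TwdlH, the measured Tweedle gene of its run, gave 49.8 and 63 in revert, 70.9 and 69.7 in KG03723, and 84 and 85.1 in rm7. Its genotypes did not overlap.

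Cpr72Ec moved the other way. It gave 86.8 and 84.2 in revert, 66.6 and 53.2 in KG03723, and 10.3 and 23 in rm7, where both arrays were under 43. After PBS it was at least 2.02-fold lower in rm7 than in revert. The fitted log2 difference of -0.99 ± 0.26 did not pass (limma adjusted p = 0.0881), and it is bounded by the value to which low signals were set. With the lower value of 10.9 in its place, the difference was -2.43 (limma adjusted p = 0.0258), and with genes above 43 on at least 1 array in the fit it passed as well (0.0461).

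Cpr30B was the 1 measured gene at least 2-fold higher in rm7 than in revert after PBS, at least 2.05-fold, and 2.44% of all genes were so. Cpr30B gave 40.6 and 66.9 in revert, 66.9 and 25 in KG03723, and 88.3 and 74.5 in rm7. After bacteria 0 of the 24 reached 2-fold higher, against 5.44% of all genes. At least 2-fold lower after PBS were 4 genes (Cpr67Fb, Cpr49Ae, Pcp and Cpr72Ec), against 4.38% of all, and after bacteria 2 (Cpr67Fb and Cpr49Ae), against 3.02%.

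KG03723 differed from revert in fewer members, and mostly after PBS. Cpr62Bb gave 280 and 305 in revert, 633 and 275 in KG03723, and 230 and 237 in rm7. The KG03723 PBS array stood alone, 2.26-fold above the revert PBS array, while the KG03723 bacteria array lay among the others. With Pcp, 2 of the 24 were at least 2-fold higher in KG03723 after PBS, against 1.81% of all genes, and Cpr67Fb was the 1 at least 2-fold lower, against 1.35%. After bacteria 0 were 2-fold higher, against 2.28%, and Cpr67Fb was again the 1 lower, against 1.3%. Both KG03723 arrays lay above both revert arrays for Cpr64Ab, Pcp and TwdlH, as for 17.1% of all genes. They lay below them for Cpr67Fb, Cpr72Ec and TwdlY, as for 20.8%. Comparisons of both mutants share the revert arrays.

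**Figure D3:**
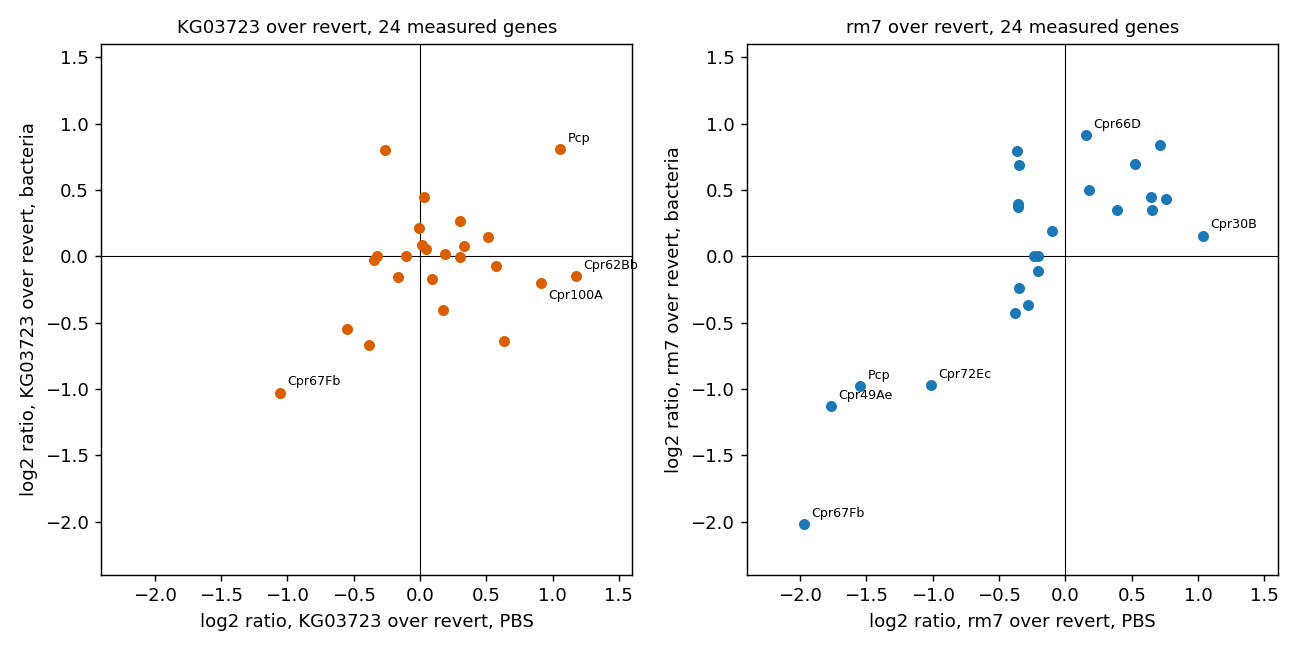
log2 ratio of each mutant over revert for the 24 measured genes, with the ratio of the PBS arrays on the horizontal axis and that of the bacteria arrays on the vertical axis, 1 point per gene and 1 panel per mutant. Cpr67Fb lies at the lower left in both panels, near -1 for KG03723 and near -2 for rm7, and Cpr49Ae at the lower left for rm7.

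Injection of bacteria left most of the 24 measured cuticle protein genes within 2-fold of their PBS signal, as it did most genes of all kinds. In revert 0 of the 24 measured genes were at least 2-fold higher, against 0.609% of all genes, and 0 were lower, against 3.59%. Their log2 ratios ran from -0.69 to 0.64, with 10 above 0 and 14 below, and a median of -0.04. In rm7 0 were 2-fold higher, against 0.64%, and 0 lower, against 0.336%. There 18 genes lay above 0 and 5 below, with a median of 0.23. In KG03723 6 lay above 0 and 17 below, with a median of -0.30. Of all genes, 49.3% lay above 0 in revert, 53.9% in KG03723 and 49.3% in rm7. The median over all genes was 0.00 in revert, 0.02 in KG03723 and 0.00 in rm7. The difference between these medians was not tested, and the RNA integrity ratios above were at their highest on the rm7 bacteria array.

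Edg91 and Cpr62Bb were the members that reached 2-fold, both in KG03723. Edg91, a cuticle protein gene named for its dependence on ecdysone, gave 56 and 57.8 in revert, 46.6 and 101 in KG03723, and 36.6 and 43 in rm7. It was 2.16-fold higher after bacteria in KG03723, where 0.493% of all genes reached 2-fold in that direction, and the other 5 arrays read 57.8 or less. Cpr62Bb was 2.30-fold lower after bacteria in KG03723, where 0.903% of all genes were, from the PBS array that stood alone above.

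Cpr67Fb was higher after bacteria in each genotype, by log2 ratios of 0.58 in revert, 0.60 in KG03723 and 0.54 in rm7. The fitted difference over the 3 genotypes was 0.57 ± 0.12, and it did not pass (limma unadjusted p = 0.0022, adjusted p = 0.75, and at least 0.236 under each of its 12 alternatives). No gene of any kind passed in this contrast of the limma fit, so 0.0% of all genes were called higher and 0.0% lower. At an unadjusted limma p under 0.05 stood 347 genes, with Cpr67Fb the 1 cuticle gene among them. The signal was higher after bacteria in all 3 genotypes for Cpr47Ee, Cpr47Ef, Cpr67B, Cpr67Fb and Edg91, a pattern of 10.4% of all genes, and lower in all 3 for Cpr49Ab, Cpr64Ab and Cpr78E, a pattern of 9.09%.

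**Figure D4:**
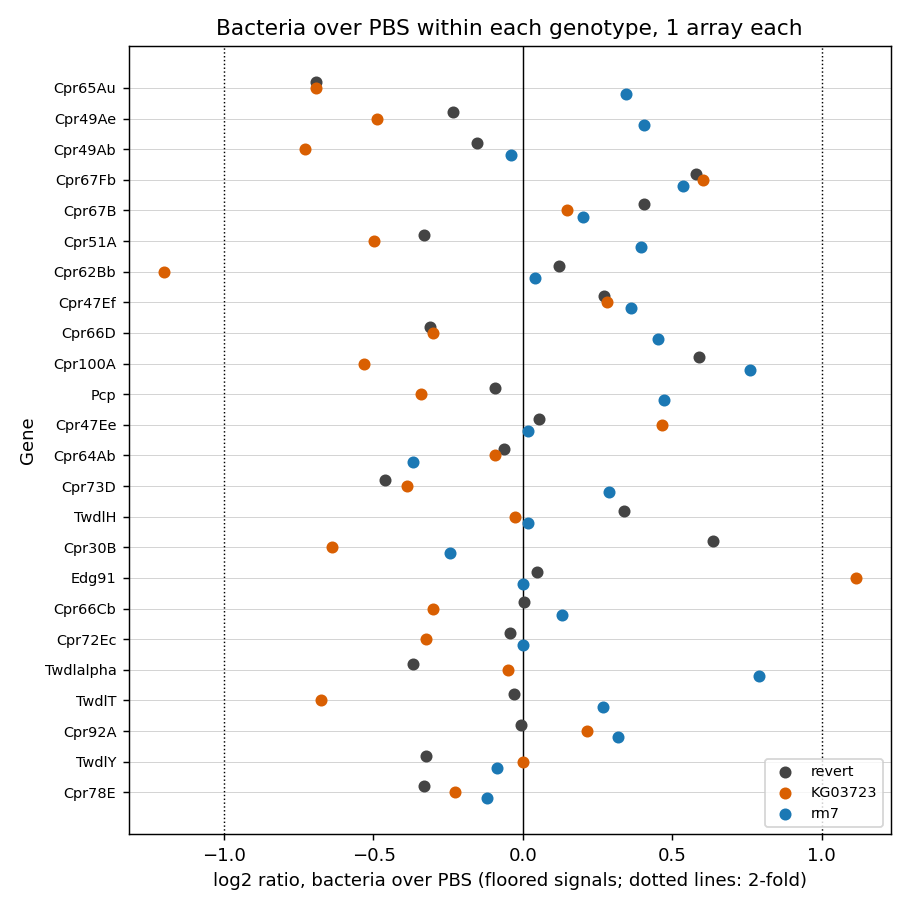
log2 ratio of bacteria over PBS within each genotype for the 24 measured genes, from floored signals of 1 array each; the dotted lines mark 2-fold. Cpr67Fb has its 3 points together between 0.54 and 0.60, and the points of KG03723 lie mostly to the left of those of rm7.

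The 16 genes above 43 on 1 or 2 arrays were 13 Cpr genes, the Tweedle gene TwdlG, the larval gene Lcp65Aa and Ccp84Ae. On the rm7 arrays 6 of them were above 43 after PBS and 9 after bacteria, against 5 and 2 on the revert arrays and 2 and 2 on the KG03723 arrays. The 565 genes of all kinds above 43 on 1 or 2 arrays showed the same order of arrays at the top, with 250 on the rm7 bacteria array, 171 on the rm7 PBS array and 78 to 126 on the other 4. Above 43 on both rm7 arrays and on no other were Cpr60D, Lcp65Aa and TwdlG, 3 of the 16 (18.8%), against 83 of the 565 (14.7%).

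Lcp65Aa, a larval cuticle protein gene, gave 26.1 and 23.9 in revert, 18.4 and 19.2 in KG03723, and 56.4 and 61 in rm7. Both rm7 arrays were above the rest, though a second probe set of Lcp65Aa was below 43 on every array, at 1.72 to 28.5. TwdlG gave 22.5 and 28.8, 33 and 13.6, and 44.7 and 88.2, and after bacteria it was at least 2.05-fold higher in rm7 than in revert. Cpr64Aa and Cpr65Ea were above 43 on the rm7 bacteria array alone, at 58.1 and 49. They entered this set through that array, so their highest array was fixed by the filter, and their other signals were all under 43. Lcp65Aa and TwdlG likewise entered it through the rm7 arrays alone. Cpr64Ad reached 84.3 on the rm7 bacteria array and 52.8 on the KG03723 PBS array, so its genotypes overlapped. The rm7 bacteria array held the highest signal of 9 of the 16 genes and of 202 of the 565 (35.8%), more than any other array in both sets. It also had the highest 3'/5' ratios, and the part of RNA quality in these low signals was not tested.

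**Figure D5:**
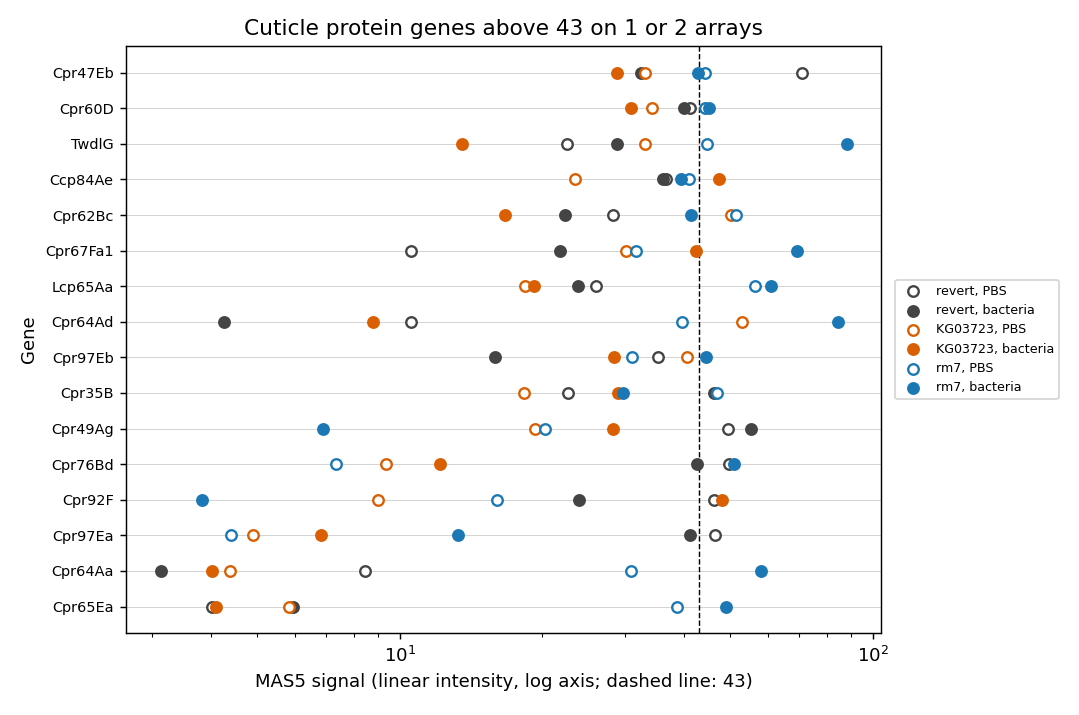
MAS5 signal (linear intensity, log axis) of the 16 cuticle protein genes above 43 on 1 or 2 arrays, 1 point per array; the dashed line marks 43. The highest point belongs to the rm7 bacteria array for 9 of the 16, as for 35.8% of all genes above 43 on 1 or 2 arrays.

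Genes of classes linked to cuticle, chitin and moulting were read from 7 further lists, with 60 measured genes together. Whether they act with the cuticle proteins in these flies was not tested. In the limma fit 1 of the 60 passed in KG03723 over revert (1.67%, against 1.38% of all genes), 3 in rm7 over revert (5.0%, against 5.63%) and 4 in rm7 over KG03723 (6.67%, against 6.15%), shares close to those of all genes. Of 8 other listed cuticle protein genes 3 were measured and 0 passed in any contrast. Acp65Aa, an adult cuticle protein gene, gave 83.4 and 118 in revert, 103 and 83 in KG03723, and 199 and 156 in rm7, a log2 difference from revert of 0.83 that did not pass (limma adjusted p = 0.219). Both rm7 arrays were above the others. The gene of the elastic protein resilin was above 43 on no array.

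Of 27 listed genes of chitin synthesis and turnover, 18 were measured. Cda9, a chitin deacetylase gene, gave 68.9 and 48.4 in revert, 205 and 222 in KG03723, and 8.23 and 46.3 in rm7, and was higher in KG03723 than in revert by 1.88 ± 0.28 on the log2 scale (limma adjusted p = 0.032). Gfat2, for the first enzyme of the hexosamine pathway that supplies chitin precursors, rose in rm7 against revert by 0.60 ± 0.12 (limma adjusted p = 0.0376). Cda9 (-2.26, limma adjusted p = 0.00594) and the chitinase gene Cht4 (-0.90, 0.0357) were lower in rm7 than in KG03723, and Gfat2 was higher (0.63, 0.0308). The list's median log2 difference was 0.07 in KG03723 over revert and 0.17 in rm7 over revert.

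Of 21 tanning and pigment genes 14 were measured, and yellow-k was higher in rm7 than in revert (1.12 ± 0.24, limma adjusted p = 0.0463), with signals of 137 and 107 in revert and 263 and 266 in rm7. In rm7 over KG03723 yellow-h was higher (1.16, limma adjusted p = 0.0394). The tyrosine hydroxylase gene ple, whose product starts the tanning pathway, was above 43 on no array. Of 9 genes of cuticular hydrocarbon synthesis 7 were measured, and the fatty acid synthase gene FASN3 was higher in rm7 than in revert (0.85 ± 0.13, limma adjusted p = 0.0161). It gave 1960 and 2406 in revert, 3770 and 3300 in KG03723, and 3862 and 3949 in rm7, so revert was lowest.

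The remaining lists had no gene past the threshold in any contrast of the limma fit. They were the chitin-binding obstructor family (5 measured of 10), the zona pellucida proteins of the apical matrix (5 of 11) and the regulators of ecdysis and moulting (8 of 20). For the regulators the median log2 difference was 0.09 in rm7 over revert and -0.06 in KG03723 over revert. Among them the bursicon receptor gene rk, the peptide genes CCAP and Eh, and Eip78C, Hr3 and Hr4, which respond to ecdysone, were above 43 on no array.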

How the data were processed

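For each array the authors deposited linear intensity values of all probe sets. Per the submitters' processing notes these come from MAS5, with a version not given in the sources used here. The values were used as deposited, with 183 control probe sets left out of 18952. Genes were named from the platform annotation. The symbols were set against RefSeq by gene identifier, and the reference also gave the order of genes. Signals under 43 were set to 43. Each group holds 1 array, so ratios of 2 arrays were counted at 2-fold with no test. The 1 test was an additive fit of genotype and injection with limma 3.58.1 in R 4.3.3, with a variance trend, 2 residual degrees of freedom and Benjamini-Hochberg adjustment at 0.05, over 9527 genes above 43 on at least 3 arrays. It was run on simulated data with independent errors and genotype changes that were the same after both injections. That run cannot show how the fit behaves where the response to bacteria differs between genotypes. Nothing in the labels says whether arrays hold separate cultures of flies, and precision is limited by having 6 arrays. The members and the lists were chosen with earlier results of these data known. Signals on all arrays are given for the 12 brightest measured members, for every member past the threshold and for those 2-fold apart, and other members are named for comparison. The genes of the other lists are named where they passed the threshold, and a few for their role or after their values were seen. Alternatives were floors at the 20th and at the 60th percentile, quantile normalization, the mean over probe sets, a 3-fold threshold, other filters on arrays above the floor, no variance trend and leaving out each array.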

Additional observations from a re-analysis of the deposited data

Results flagged for a closer look

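A probe set that the platform assigns to both Lcp65Ag1 and Lcp65Ag2 falls outside the rule of 1 gene per probe set and was not used above. It read 124 on the rm7 PBS array and 124 on the rm7 bacteria array, against 46 and 36.4 in revert and 31.2 and 27.6 in KG03723. The rm7 signal was 2.69-fold above revert after PBS and at least 2.88-fold after bacteria. The probe set cannot tell these near-identical larval cuticle genes apart, and it was not among the probe sets tested, each of which belongs to 1 gene.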

How the results depend on the processing

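The count of 24 measured genes became 74 with a floor at the 20th percentile (10.9) and 8 with one at the 60th (241), 40 with 1 array above the floor required and 14 with all 6. With the 20th percentile floor the genes at least 2-fold higher and lower after bacteria numbered 4 and 6 in revert, 5 and 10 in KG03723 and 7 and 8 in rm7. With it KG03723 over revert gave 5 and 8 after PBS and 6 and 9 after bacteria, and rm7 over revert 12 and 13, and 15 and 11. At this floor the counts include signals under 43. Shares over all genes were not taken for this or the other alternatives, so these counts are not read as changes of the cuticle genes. With the 60th percentile floor 0 genes were higher after bacteria in KG03723, 1 was higher in KG03723 over revert after PBS, and in rm7 over revert after PBS 0 were higher and 2 lower. At 3-fold the counts were 0 and 0 for bacteria in KG03723, 0 and 0 for KG03723 over revert after PBS, 0 lower after bacteria, 0 higher and 2 lower for rm7 over revert after PBS, and 1 lower after bacteria. Quantile normalization gave 4 lower in rm7 over revert after bacteria. In the fit, KG03723 over revert gave 0 lower with the mean over probe sets, with 1 array above the floor required and with no trend, and 0 to 1 when each array was left out. In rm7 over revert 1 was lower with the mean over probe sets and 1 with no trend, and leaving out each array gave 2 to 3 lower and 0 to 1 higher (Cpr65Au, without the rm7 PBS array). In rm7 over KG03723 leaving out each array gave 1 to 4 lower and 0 to 1 higher. The gained genes were Cpr65Au, higher without the rm7 PBS array (log2 difference 1.24), and Cpr65Au and Cpr62Bb without either revert array. Without a revert array the estimate of rm7 over KG03723 is unchanged and its error alone differs. Each fit with 1 array left out has 1 residual degree of freedom. Over named genes, 174 of 197 fitted differences kept their direction and side of the threshold, 14 lost and 9 gained the call, and 0 turned. All 14 losses fell on differences that had passed, since the others had no call to lose. The 197 hold both kinds, so the share kept does not measure how steady the calls were. Of 47 ratios of 2 arrays 1 moved, that of Cpr72Ec in rm7 over revert after PBS, to -0.95 with quantile normalization. The cause of these changes was not tested, beyond the genes that a floor or filter adds or removes. Signals under 43 carry no order, so depth of signal limits what can be said of the 80 genes not measured. The additive fit already sets bacteria against PBS within each genotype, and the labels give no replicate numbers for a further block.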

Other observations

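Of the other 5 probe sets shared by several genes that include a cuticle gene, 1 was bright. The probe set of Cpr57A and the odorant-binding protein gene Obp57d read 391 and 371 in revert, 330 and 351 in KG03723, and 265 and 424 in rm7. A second probe set of the same pair read 5.96 to 30, so it is not known which of the genes gave the signal. The shared probe sets of Ccp84Aa and Ccp84Ab, of Cpr65Ax1 and Cpr65Ax2, and of Cpr67Fa1 and Cpr67Fa2 were below 43 on every array.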
